A study of Mus musculus with 6 samples.

Results

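The 28 genes described here are expressed by myelinating Schwann cells, the glia that wrap the larger axons of peripheral nerves and of the sensory ganglia. They were taken by NCBI mouse gene identifier from the 36528 genes listed for each library, from a list made by known role but with earlier results of these data known, and all 28 were found and passed the filter on low counts, which left 22043 genes for testing. By role, 5 encode compact myelin proteins, 10 proteins of non-compact myelin or of the contact with the axon, 3 enzymes of myelin lipid synthesis, 4 transcription factors, 3 receptors and 3 other proteins of Schwann cells.

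A Schwann cell that touches an axon reads the axon's neuregulin through the receptor pair ERBB2 and ERBB3. With the transcription factors SOX10, POU3F1 and EGR2 it then switches on the genes of the myelin sheath. Compact myelin is the insulating spiral of fused membranes, and non-compact myelin forms the loops and channels that hold cytoplasm and flank the node of Ranvier, where the axon's sodium channels cluster.

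RNA came from lumbar dorsal root ganglia L4, L5 and L6 of female mice aged 12 to 18 weeks, with 6 ganglia of 1 mouse in each library. All mice were Scn9a loxP/loxP, that is, both copies of the gene for the sodium channel Nav1.7 were flanked by loxP sites. The 3 control mice were littermates negative for pCAAG.Cre.ER, and the 3 CreER-positive mice carried this transgene, a Cre recombinase fused to an oestrogen receptor domain that tamoxifen activates. Control mice carry the floxed alleles but no Cre, so an effect of the transgene itself and one of the Scn9a deletion cannot be told apart. The series title calls the knockout global, so the allele may also be deleted in cells other than neurons. Nothing in the labels gives the drug schedule or the exons deleted. Scn9a had 635, 611 and 557 CPM in the controls against 620, 565 and 574 CPM in the mice labelled CreER-positive (CPM are counts relative to the scaled library total). The groups overlapped, with a log2 fold change of -0.04 ± 0.08 (SE) and an edgeR adjusted p of 0.918. Counts over the whole gene do not show whether some of its exons were removed, so the expression data do not check the genotype labels, on which every direction below rests.

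Total counts ranged from 40237131 to 63332040 per library. Sensory ganglion markers were present in every library, with Avil at 576 to 692 CPM and Isl1 at 141 to 163 CPM. The markers on this list were not all level between the groups. Of the 8, edgeR called 1 lower (adjusted p under 0.05), against 0.563% of all tested genes. An unadjusted edgeR p under 0.05 was reached by 6, 3 of them higher, against 10.6% of all tested genes. The CPM ranges of 5 did not overlap between groups, against 15.9% of all tested genes. In 3 libraries, transcripts of other tissues stood out. Control replicate 2 held skeletal muscle transcripts, with 6 tested markers summing to 59.0 CPM against 7.31 to 10.7 CPM in the other libraries. CreER-positive replicate 2 held transcripts of the spinal cord. The oligodendrocyte gene Mobp was at 12.1 CPM there against 0.640 to 2.77 CPM elsewhere. Olig1 had 33 counts against 1 to 3, the inhibitory neuron gene Slc32a1 28 counts against 0 to 2, and the glycine transporter gene Slc6a5 44 counts against 1 to 7. CreER-positive replicate 3 had the highest blood, macrophage, endothelial and fibroblast markers, for example 106.5 CPM summed over 8 macrophage genes against 55.5 to 74.9 CPM elsewhere.

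None of the 28 Schwann cell and myelin genes passed the test between CreER-positive and control ganglia. The median log2 fold change of the 28 was 0.07, against 0.00 for all tested genes, and single estimates ran from -0.10 for Erbb3 to 0.32 for Egr2. The number of positive estimates was 23 of 28 (50.8% of all tested genes were positive), and it fell to 21 with upper-quartile scaling and 18 with scaling to total counts alone. With edgeR (quasi-likelihood fit, p adjusted over all tested genes, threshold 0.05) 0 members were called. Of all tested genes 0.726% were called, 0.163% higher and 0.563% lower. That split turned without CreER-positive replicate 3, with 333 genes higher and 235 lower. The smallest adjusted p was 0.435. At an unadjusted p under 0.05 there were 2, Egr2 and Ndrg1, both higher, against 10.6% of all tested genes in either direction and 5.05% higher, and DESeq2 and limma-voom called 0 members each, where they called 2.31% and 0.721% of the genes they tested. Groups without overlap in CPM were found for 1 member, Egr2, and for 15.9% of tested genes.

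The 95% interval of the fold change lay within a fold of 1.5 either way for 26 of the 28 genes. The other two, Egr2 and Pmp2, had upper bounds of 0.61 and 0.60 on the log2 scale, just past that fold, and the lowest bound of any member was -0.26. Without CreER-positive replicate 1, the library with the lowest member values of its group, 26 estimates were positive and 7 members had an unadjusted p under 0.05, against 9.16% of all tested genes, with a smallest edgeR adjusted p of 0.318. Without control replicate 2 and CreER-positive replicate 3 together, 4 members had an unadjusted p under 0.05, against 14.7% of all tested genes. Without control replicate 2 the median of the 28 was 0.14, and without CreER-positive replicate 2 it was 0.03 with 18 positive estimates. Without both replicates 2 it was 0.06, with 21 positive estimates and no member at an unadjusted p under 0.05, where 5.50% of all tested genes were. In whole ganglia, a different number of Schwann cells and a different amount of RNA per Schwann cell cannot be told apart.

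**Figure D1:**
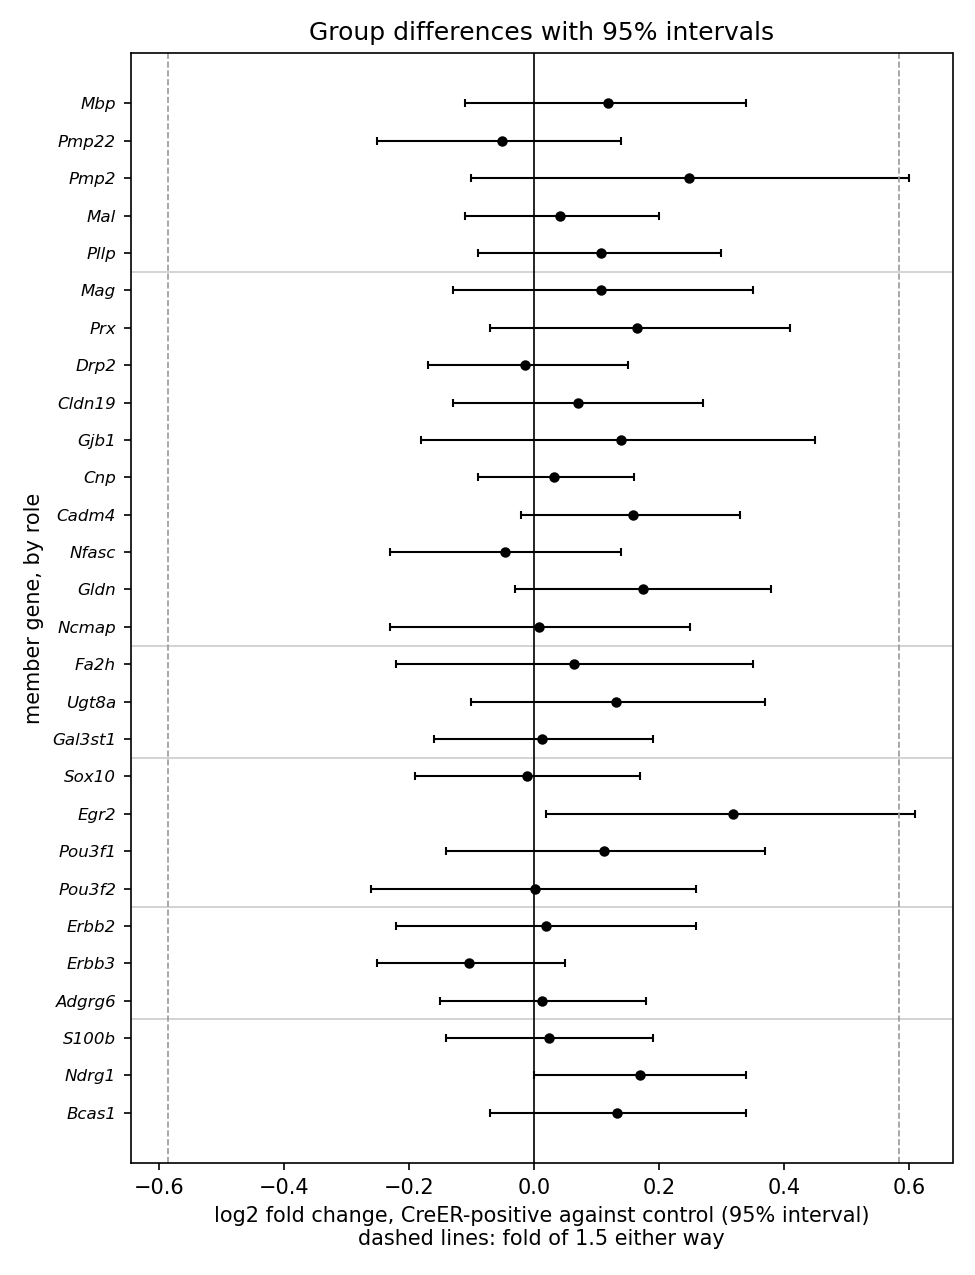
Log2 fold change of each of the 28 genes, CreER-positive against control (points), with its 95% interval from the edgeR fit (bars, n = 3 mice per group), grouped by role from compact myelin at the top to other Schwann cell proteins at the bottom. The dashed lines mark a fold of 1.5 either way. The intervals of Egr2 and Pmp2 reach past the right line, and no interval reaches the left one.

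Compact myelin genes showed small differences in both directions. Mbp, myelin basic protein, which seals the inner faces of the membranes, had 871, 984 and 930 CPM among controls and 880, 1085 and 1057 CPM among CreER-positive mice. The groups overlapped around means of 928 ± 56.3 CPM in controls and 1007 ± 111 CPM in CreER-positive mice (SD, n = 3). The difference was 0.12 on the log2 scale, with an interval from -0.11 to 0.34 and an edgeR adjusted p of 0.762. Pmp22, a membrane protein whose gene dosage sets the course of inherited neuropathies, had 1187, 1220 and 1217 CPM among controls and 1082, 1247 and 1167 CPM among CreER-positive mice. Its CreER-positive values spanned the whole control range, with a log2 fold change of -0.05 (interval -0.25 to 0.14). Pmp2, a lipid-binding protein of the myelin membrane, varied most of all 28 genes, 1.69-fold between the highest and the lowest library. It had 19.9, 17.1 and 23.4 CPM among controls and 18.7, 29.0 and 24.1 CPM among CreER-positive mice. The library with spinal cord transcripts was the highest and the library with muscle transcripts the lowest, and the difference of 0.25 had an edgeR adjusted p of 0.649. The proteolipids Mal and Pllp had log2 fold changes of 0.04 and 0.11.

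Of the 10 genes of non-compact myelin and axon contact, 8 had positive estimates, or 7 with upper-quartile or total-count scaling, where Ncmap turned negative. None was called. Prx, periaxin, which links the Schwann cell membrane to dystroglycan, had 193, 228 and 201 CPM among controls and 197, 266 and 233 CPM among CreER-positive mice (log2 fold change 0.17, interval -0.07 to 0.41). Drp2, the dystrophin-related partner of periaxin in the same complex, had 201, 232 and 212 CPM against 203, 227 and 208 CPM. Its 2 groups covered nearly the same range, and its difference of -0.01 had an interval from -0.17 to 0.15. Cadm4, the glial adhesion molecule that binds axonal nectin-like proteins, had 82.0, 84.0 and 87.0 CPM among controls and 84.0, 105.4 and 92.8 CPM among CreER-positive mice. CreER-positive replicate 1 lay inside the control range and the other two above it, with a difference of 0.16 (edgeR adjusted p 0.540).

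Gldn, gliomedin, which gathers sodium channels at the forming node, had 23.4, 27.9 and 25.4 CPM against 25.4, 31.3 and 30.0 CPM, a difference of 0.17 (edgeR adjusted p 0.564). Mag, the myelin-associated glycoprotein on the axon-facing membrane, had 18.4, 22.5 and 18.4 CPM against 18.4, 23.2 and 22.4 CPM. Its values fell into a low set near 18.4 CPM and a high set above 22 CPM, each with libraries of both groups. Oligodendrocytes, the myelinating glia of the spinal cord, also express Mag, Mbp and Cnp. Cnp, a nucleotide phosphodiesterase of the cytoplasmic channels, was the least variable member, at 270 to 287 CPM over all 6 libraries (0.03, interval -0.09 to 0.16).

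The tight junction gene Cldn19 (0.07), the gap junction gene Gjb1 for connexin 32 (0.14) and Ncmap, a membrane protein of non-compact myelin (0.01), had intervals that included 0. Nfasc, neurofascin, had 174, 186 and 185 CPM among controls and 178, 196 and 154 CPM among CreER-positive mice (-0.05). It makes a glial form at the paranode and a neuronal form at the node, which gene-level counts do not separate. Its lowest value was in CreER-positive replicate 3, the library in which pan-neuronal markers summed to 11270 CPM, against 11520 to 14840 CPM in the other libraries. The sum of 11520 CPM was in control replicate 2, where Nfasc had its highest control value, 186 CPM. What those values contribute to the low Nfasc value was not tested.

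Enzymes of myelin lipid synthesis did not pass either. Fa2h, which hydroxylates the fatty acids of myelin lipids, had 20.0, 26.7 and 19.6 CPM among controls and 22.6, 26.0 and 20.8 CPM among CreER-positive mice (0.06). In each group 1 library, replicate 2, stood above the others. Ugt8a, which makes galactosylceramide, the main glycolipid of myelin, had 46.9, 54.2 and 48.0 CPM against 45.1, 59.9 and 58.3 CPM (0.13, edgeR adjusted p 0.744). Gal3st1, which sulphates that lipid to sulphatide, was at 17.2 to 17.4 CPM among controls and 15.8 to 19.2 CPM among CreER-positive mice (0.01, or a negative value with total-count scaling).

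Among the transcription factors, Egr2, the zinc finger factor that drives the myelin genes, had the largest estimate of the 28. It had 8.66, 10.7 and 13.2 CPM among controls and 13.4, 13.8 and 13.6 CPM among CreER-positive mice. The 3 CreER-positive values lay close together and just above the highest control. Means were 10.9 ± 2.30 CPM in controls and 13.6 ± 0.219 CPM in CreER-positive mice (SD, n = 3), a log2 difference of 0.32 ± 0.13 (SE), with an unadjusted p of 0.0368 and an edgeR adjusted p of 0.435. The estimate was 0.18 without control replicate 1 and 0.49 without control replicate 3, and the adjusted p ran from 0.159 to 0.999 over the alternatives (edgeR, DESeq2 or limma-voom). Egr2 is also an immediate early gene that other cells of the ganglion can express, and these counts do not say in which cells it was read. Sox10, the factor that specifies peripheral glia, had 78.5, 79.2 and 65.4 CPM against 68.8, 78.2 and 74.5 CPM (-0.01, interval -0.19 to 0.17). Pou3f1, the factor of the promyelinating stage also called OCT6, was at 3.10 to 3.80 CPM (0.11), and its relative Pou3f2, or BRN2, at 12.5 to 17.0 CPM with a difference of 0.00.

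Because EGR2 was the member with the largest estimate, the promoter windows that hold an EGR core motif are shown. RefSeq windows of GRCm38.p6, each from 250 bases before a transcript start to 50 after it (300 bases), were found for 19 of the 28 genes (36 windows) and searched on both strands. The EGR core GTGGGCG was in 5 of 36 windows (13.9%), of Cadm4, Cldn19, Egr2 and Gjb1, against 8.0% of all 32851 windows. The SOX core ACAAAG was in 13.9% of the members' windows (18.7% of all) and ACAATG in 11.1% (12.6% of all). The TEAD core GGAATG was in 27.8% (14.7% of all). Windows of 1 gene can share sequence, and a match is a description, not a site. The stretches below lie upstream of 1 transcript start per gene, that of the first window by position that held the EGR core. They are free of annotated exons and run 5′ to 3′ on the gene's strand, with EGR and SOX matches in capitals. CGCCCAC is the EGR core and CATTGT the SOX core ACAATG read on the other strand, and none of the matches overlap. The stretches lie at chr7:24481773-24482022 (Cadm4), chr4:119255191-119255413 (Cldn19), chr10:67535249-67535474 (Egr2) and chrX:101383482-101383731 (Gjb1), all on the plus strand. Those of Egr2 and Gjb1 lie inside the spans of their genes, which begin at 67534469 and 101376376, so they do not precede the first start.
Cadm4: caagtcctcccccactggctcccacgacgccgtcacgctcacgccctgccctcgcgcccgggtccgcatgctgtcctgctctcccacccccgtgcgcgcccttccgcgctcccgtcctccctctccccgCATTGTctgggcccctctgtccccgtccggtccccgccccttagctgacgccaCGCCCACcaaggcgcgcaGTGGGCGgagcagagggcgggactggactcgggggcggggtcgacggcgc
Cldn19: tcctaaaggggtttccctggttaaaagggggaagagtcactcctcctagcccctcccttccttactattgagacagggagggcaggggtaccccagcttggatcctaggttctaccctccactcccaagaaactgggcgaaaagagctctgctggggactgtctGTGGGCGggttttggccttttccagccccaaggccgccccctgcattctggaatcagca
Egr2: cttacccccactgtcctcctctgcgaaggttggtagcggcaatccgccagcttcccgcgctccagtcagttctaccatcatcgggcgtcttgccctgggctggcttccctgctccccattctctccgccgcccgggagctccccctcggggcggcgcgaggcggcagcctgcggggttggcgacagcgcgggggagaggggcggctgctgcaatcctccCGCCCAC
Gjb1: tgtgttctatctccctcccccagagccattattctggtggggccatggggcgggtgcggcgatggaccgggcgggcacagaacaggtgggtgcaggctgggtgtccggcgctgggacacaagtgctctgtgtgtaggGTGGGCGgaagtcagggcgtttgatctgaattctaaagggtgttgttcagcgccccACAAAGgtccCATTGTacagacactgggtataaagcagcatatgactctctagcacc
The 4 genes with these matches had log2 fold changes of 0.16, 0.07, 0.32 and 0.14 in this order, and none was called. Positive estimates were found for 23 of all 28 members, and Egr2, whose estimate led to this display, is itself 1 of the 4. A link between the matches and the fold changes was not tested. The Gjb1 stretch holds an EGR core and both SOX cores, and the Cadm4 stretch holds the EGR core on both strands.

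The receptors were nearly level between groups. Erbb3, the neuregulin-binding receptor of the pair, had 50.4, 53.3 and 45.9 CPM among controls and 45.6, 48.9 and 44.8 CPM among CreER-positive mice, the lowest estimate of the 28 (-0.10, interval -0.25 to 0.05, edgeR adjusted p 0.663). Its kinase partner Erbb2 was at 9.44 to 12.2 CPM (0.02), and Adgrg6, the adhesion G protein-coupled receptor needed to start myelination, at 40.3 to 48.4 CPM (0.01). With total-count scaling the estimates of all 3 receptors were negative.

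Among the other Schwann cell proteins, Ndrg1, a cytoplasmic protein lost in a demyelinating neuropathy, had 255, 299 and 282 CPM among controls and 292, 322 and 326 CPM among CreER-positive mice. Replicate 2 of the controls lay above the lowest CreER-positive mouse, so the groups overlapped. The log2 fold change was 0.17 ± 0.08 (SE), with an unadjusted p of 0.0494 and an edgeR adjusted p of 0.471. S100b, a calcium-binding protein of Schwann and satellite glial cells, was at 434 to 496 CPM (0.02, interval -0.14 to 0.19). Bcas1, a gene of early myelinating glia, was at 36.5 to 48.1 CPM, highest in CreER-positive replicate 3 (0.13).

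**Figure D2:**
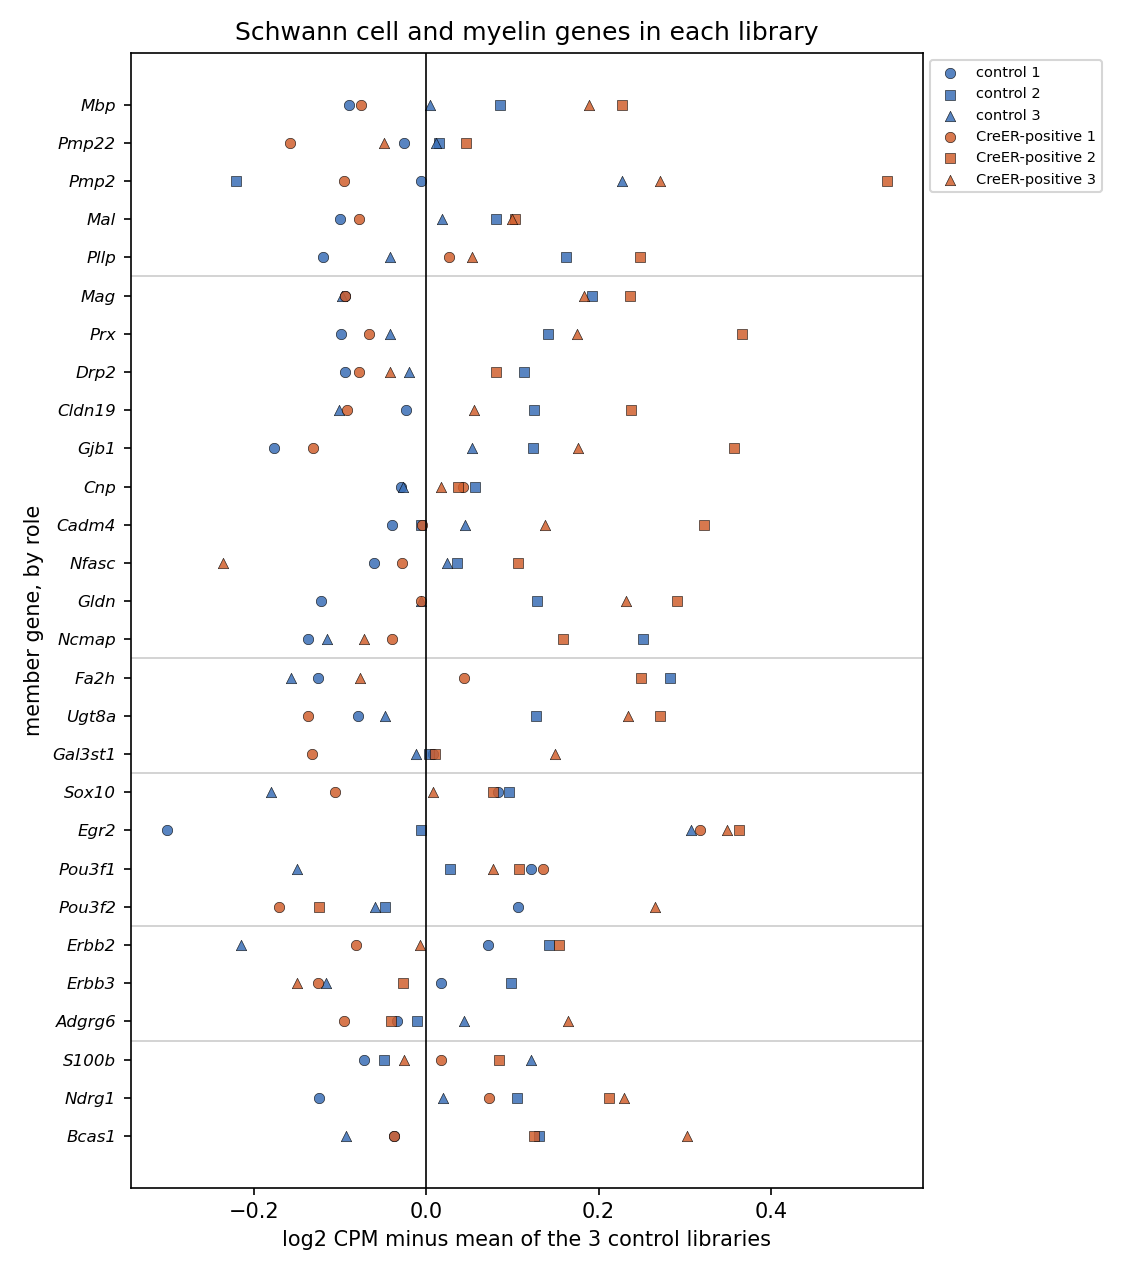
Log2 CPM of each of the 28 genes in each of the 6 libraries, as the distance from the mean of the 3 controls (blue, control; orange, CreER-positive; circle, square and triangle for replicates 1, 2 and 3, which are not paired between groups). Most myelin genes have both squares to the right and both circles to the left.

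For all 28 members the wider of the 2 within-group ranges in log2 CPM exceeded the difference of the group means. That was not counted over all tested genes. It held even for Egr2, whose groups did not overlap, so it does not show that a gene is unchanged. Many members were high or low in the same libraries. Among the controls, replicate 2 had the highest value for 20 of the 28 genes (30.6% of all tested genes were highest there) and replicate 1 the lowest for 17 (35.3%). Among the CreER-positive mice, replicate 2 had the highest value for 21 (32.7%) and replicate 1 the lowest for 21 (29.2%). Both held at once for the highest value of 17 members, or 60.7%, against 9.49% of all tested genes. These 17 were Mbp, Pmp22, Mal, Pllp, Mag, Prx, Drp2, Cldn19, Gjb1, Nfasc, Gldn, Ncmap, Fa2h, Ugt8a, Sox10, Erbb2 and Erbb3. Replicate numbers follow the order of deposit and pair no mice.

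Relative to the control mean, the median of the 28 genes was -0.07, 0.10 and -0.02 on the log2 scale in control replicates 1 to 3 and -0.08, 0.16 and 0.12 in CreER-positive replicates 1 to 3. CreER-positive replicate 1 was thus level with the lowest control, and control replicate 2 close to CreER-positive replicate 3. The compact myelin genes reached 0.23 and the non-compact ones 0.24 in CreER-positive replicate 2, where the transcription factors were at 0.09 and the receptors at -0.03. The highest library exceeded the lowest 1.27-fold in the median member (1.06 to 1.69), against 1.22-fold for the 17468 tested genes whose mean reached 1 CPM.

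Markers of other tissues were raised in the same 2 libraries. In CreER-positive replicate 2 the 6 tested oligodendrocyte markers summed to 34.8 CPM, against 20.9 to 26.6 CPM elsewhere. Mobp carried that excess. The other 5 summed to 22.7 CPM there, within the 19.6 to 25.95 CPM of the other libraries. Most of that sum was Cldn11, at 6.62 CPM there and 6.04 to 12.8 CPM elsewhere, and Gpr37, at 13.3 CPM and 11.2 to 11.6 CPM. The sum therefore says little about the scarcer markers. Of the 6 markers, 4 (Mobp, Mog, Gpr37 and Ermn) were highest in that library, with Mog at 0.700 CPM against 0.300 to 0.489 CPM elsewhere. Of the 3 below the filter, Olig1 had 33 counts as given above, Olig2 had 4 against 0 to 1, and Opalin had 0 against 0 to 1. In that library Prx and Cldn19, which belong to Schwann cells rather than oligodendrocytes, were also at their highest, at 266 and 60.7 CPM. Drp2 and Ncmap were instead highest in control replicate 2, at 232 and 64.3 CPM. Of the 28 members, CreER-positive replicate 2 was the highest library for 15 (20.9% of all tested genes). Control replicate 2 was the highest for 6 (14% of all tested genes). In control replicate 2 the oligodendrocyte markers summed to 20.9 CPM, the lowest of all, while the muscle markers were high. The part of spinal cord or muscle tissue, or of the nerve root dissected with it, in the higher myelin values was not tested.

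**Figure D3:**
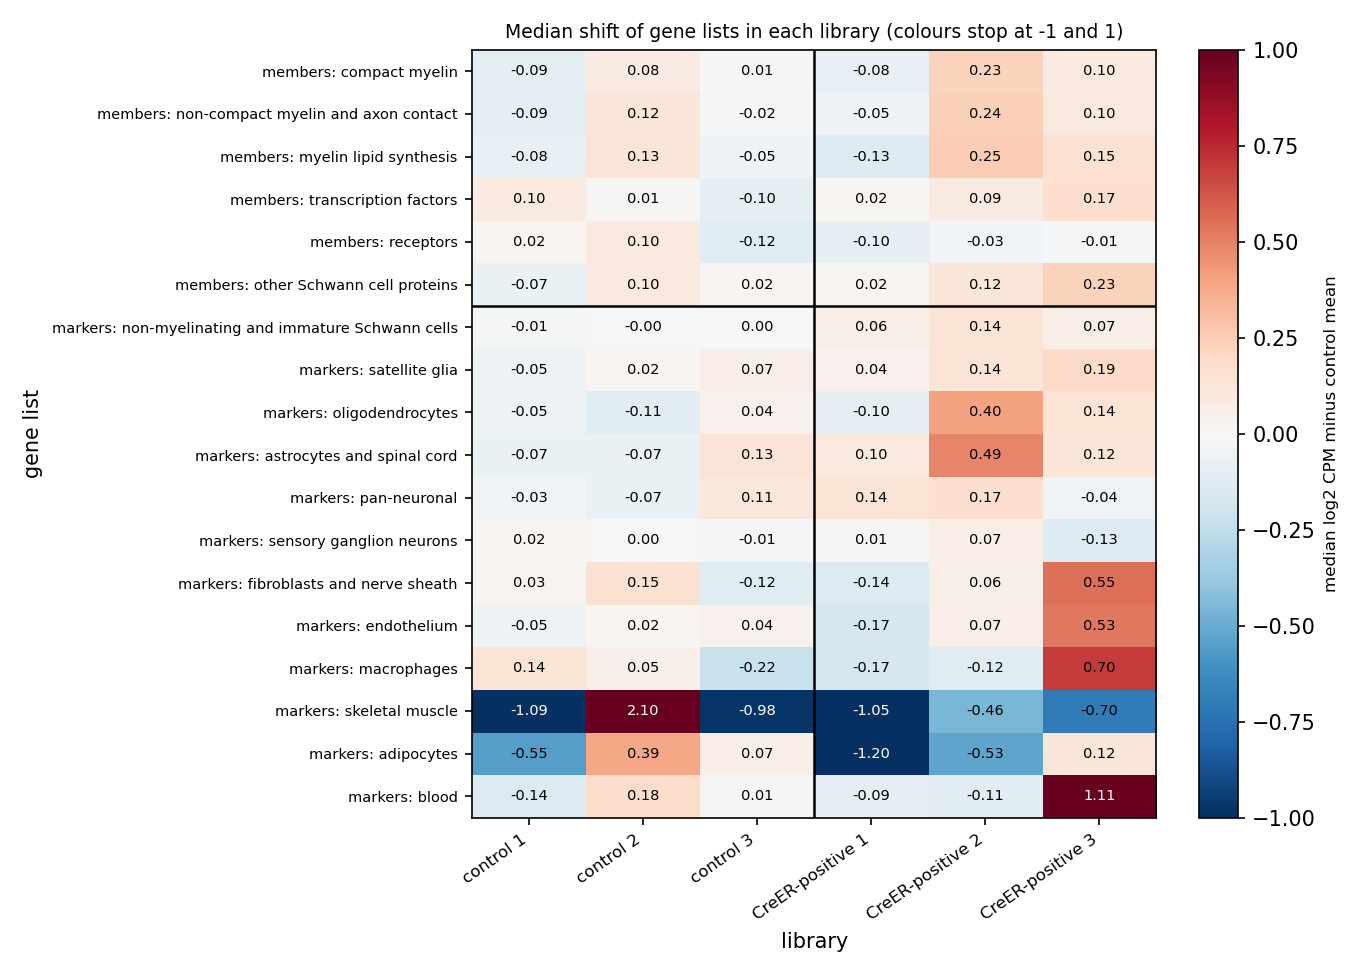
Median log2 CPM of each list of genes in each library as the distance from the mean of the controls, with members by role above the horizontal line and markers of cell types below it, controls left and CreER-positive mice right of the vertical line. The myelin lists are positive in both replicates 2, while oligodendrocyte and spinal cord markers are raised in CreER-positive replicate 2 and muscle markers in control replicate 2.

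Other glial markers did not pass the test. Of 9 markers of non-myelinating and immature Schwann cells, 0 were called by edgeR, and 7 estimates were positive (median 0.12, range -0.08 to 0.55). At an unadjusted p under 0.05 there were 2, both higher, against 10.6% of all tested genes in either direction. Groups without overlap were found for 3, against 15.9% of all tested genes. The most abundant marker, Scn7a, was at 959 to 1063 CPM (-0.02). The 9 satellite glia markers were likewise not called (median 0.08). An unadjusted p under 0.05 was reached by 2, 1 of them higher, against 10.6% of all tested genes. Apoe, the most abundant of the 9, was at 1184 to 1362 CPM among controls and 1311 to 1636 CPM among CreER-positive mice (0.23, edgeR adjusted p 0.518). Of 11 pan-neuronal markers 0 were called, and their median was 0.10. Of all tested genes, edgeR called 0.726%.

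Per length, the members spanned a wide range of levels. Divided by the exon length of the gene (union of GENCODE M21 exons), Pmp22 was highest, at 504 CPM per kilobase, above 99.9% of tested genes with such a length. S100b followed at 311, Mbp at 114 and Cnp at 76.6 CPM per kilobase. The lowest were Pou3f1 at 0.934, Erbb2 at 2.13, Pou3f2 at 2.53 and Gjb1 at 3.23 CPM per kilobase. The deposited RPKM divides by a width close to the full gene span. On that scale S100b led at 62.6, Pmp22 had 39.5 and Mbp, whose span is long for its exons, 8.91, so the order of members depends on the length used.

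**Figure D4:**
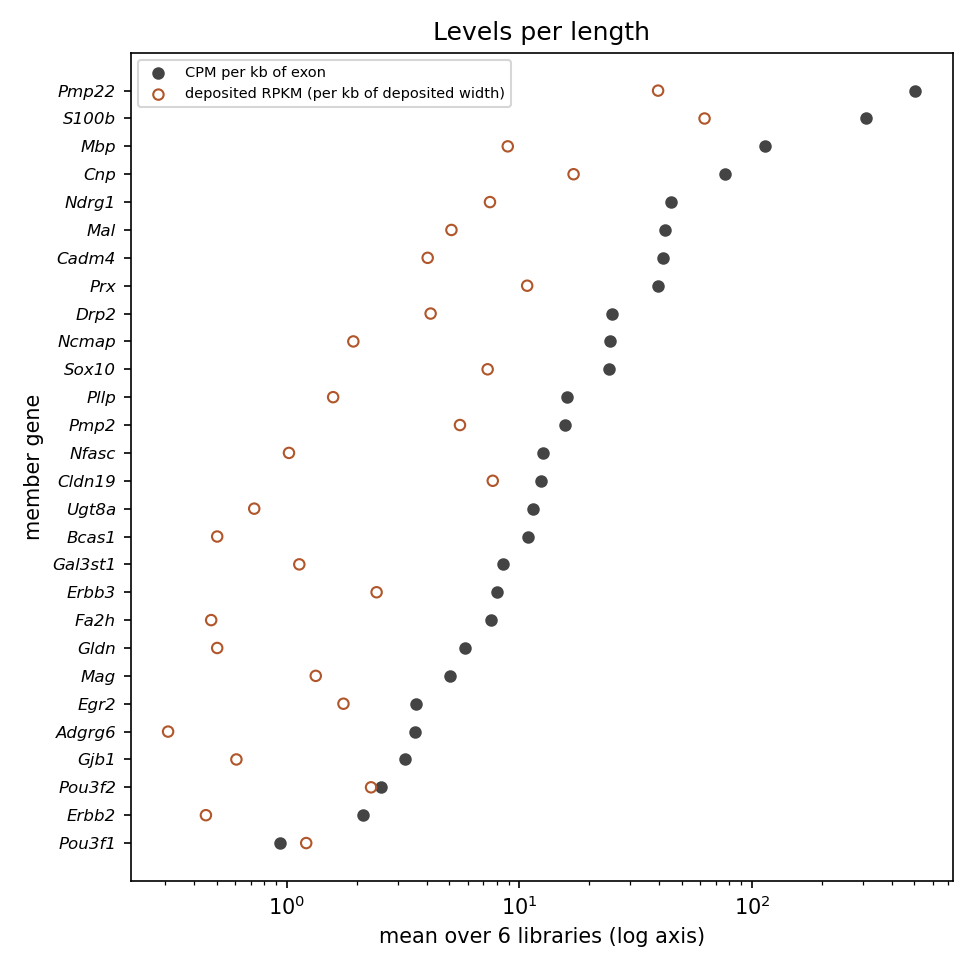
Mean level of each of the 28 genes over all 6 libraries on a log axis, as CPM per kilobase of exon (filled) and as the deposited RPKM (open), ordered by the first. Pmp22 is highest per kilobase of exon and S100b on the deposited scale.

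Of 87 related genes, in 6 lists of other myelin proteins, axonal partners, neuregulin and other signals, the basal lamina, transcription, and lipid and cholesterol synthesis, 0 were called by edgeR, against 0.726% of all tested genes. The median log2 fold change was 0.04, 57 estimates were positive, and 14 genes had an unadjusted p under 0.05 (10 higher, 4 lower), against 10.6% of all tested genes. limma-voom also called 0. DESeq2 called 4, against 2.31% of the genes it tested, and these were the 4 with the smallest edgeR p. Groups without overlap in CPM were found for 14 of the 87, against 15.9% of all tested genes. Id4, a helix-loop-helix inhibitor of differentiation, had 37.2, 40.4 and 38.8 CPM among controls and 32.3, 31.6 and 26.7 CPM among CreER-positive mice. All 3 CreER-positive values lay below all controls (-0.36, adjusted p 0.0922 by edgeR and 0.00702 by DESeq2).

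Jun, whose product opposes myelination and marks the repair Schwann cell but is also made by injured neurons, had 57.4, 80.4 and 72.9 CPM against 89.7, 117 and 99.6 CPM. Again the groups did not overlap (0.54, adjusted p 0.127 by edgeR and 0.00101 by DESeq2). Lamb1, the laminin beta 1 chain of the basal lamina, had 93.8, 101.4 and 93.7 CPM against 105.7, 133 and 124 CPM (0.33, adjusted p 0.159 by edgeR and 0.0148 by DESeq2). Sgcd, delta-sarcoglycan of the dystroglycan complex, had 146, 141 and 133 CPM against 178, 152 and 180 CPM (0.28, adjusted p 0.198 by edgeR and 0.0285 by DESeq2). Lamb1 passed the edgeR test without CreER-positive replicate 1 (0.0393), and Id4 without CreER-positive replicate 3 (0.0353) or with total-count scaling (0.0482). Without CreER-positive replicate 3, Dhcr7 (0.0451) and Srebf2 (0.0473) of the cholesterol pathway and Cntnap1 (0.0455), the axonal partner of neurofascin, passed too. That fit called 2.53% of all tested genes, against 0.726% with all libraries. Its share of all tested genes with an unadjusted p under 0.05 was 18.6%, against 10.6%.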

How the data were processed

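Bulk RNA-seq of 6 libraries (3 CreER-positive, 3 control mice, grouped by the genotype label) was used. GSNAP and the build GRCm38 (mm10) are named in the submitters' processing notes, with no version. Counter, annotation and strand: not given in the sources used here. The authors, per the file headers, deposited a raw count, a width in bases and an RPKM value for each of 36528 NCBI gene identifiers. The deposited RPKM was used for levels only. The width was within 10% of the gene span for all 28 members, so introns may be counted. Of the members, 8 overlap another gene (Cldn19, Cnp, Nfasc, Gldn, Egr2, Erbb2, Erbb3 and Bcas1), and without a strand setting shared reads cannot be assigned. Over all 6 libraries together, Dnajc7, which overlaps Cnp, had 73924 counts and Mien1, which overlaps Erbb2, 17711. Cnp itself had 10980 to 17384 counts per library and Erbb2 469 to 751. How many reads the overlapping genes share is not known.

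Identifiers were matched to GRCm38.p6 symbols (31049 matched; the rest held 1.91% of counts). Counts were filtered with filterByExpr, scaled by TMM (factors 0.979 to 1.02) and tested with edgeR 4.0.16 (R 4.3.3; glmQLFit and glmQLFTest, Benjamini-Hochberg over 22043 genes, threshold 0.05). Fold changes are CreER-positive against control. The standard error is the log2 fold change divided by the square root of F, and intervals (95%) use the fit's degrees of freedom. The shift by library used log2(CPM + 0.1). Chi-square tests between replicates gave 5.87 to 43.6 per degree of freedom, above sampling noise. On simulated counts of 22043 genes, of which 21762 passed the filter, edgeR found 74% of the genes given a 1.5-fold change and 96% of those given a 2-fold change, with 17 unchanged genes among 187 calls. The changed genes were drawn from those with a mean above 1 CPM. Genes were simulated independently, without the shifts by library that many members share. These percentages therefore do not give the share that would be found among the members.

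Alternatives were other scalings and filters, DESeq2 1.42.0, limma-voom (limma 3.58.1), legacy edgeR settings and leaving out each library. Leaving out pairs of libraries was chosen after seeing the data. Figures used matplotlib 3.10.9. All 28 members were named. Of the related genes those called, or else the 4 with the smallest p, were named. For the marker lists the rule was to name called genes and the most abundant gene where a list is described. It was not kept throughout. For the sensory ganglion list Avil and Isl1 were named, and the 1 called gene and the most abundant gene were not. The motif search and the other genes and libraries shown were chosen to describe the named genes. The result of 1 related gene is not reported here. Members and lists were chosen with earlier results of these data known.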

Additional observations from a re-analysis of the deposited data

How the results depend on the processing

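Under all 16 alternatives run, 0 of the 28 members were called, and the 0 of 87 related genes changed to 1 with total-count scaling and 4 with DESeq2. Leaving out 1 library gave 0 to 5 related genes called. The 160 genes called over the whole table became 430 with DESeq2 (160 higher, 270 lower), 60 to 568 when 1 library was left out (333 higher and 235 lower at the upper end), and 28 without control replicate 2 and CreER-positive replicate 2. The 60 came without control replicate 2, 71 and 73 without control replicates 1 and 3, and 568 without CreER-positive replicate 3. Compared as values rounded to 2 decimals, the estimates of 12 of the 28 members changed sign under some alternative. Values that round to 0.00 were not counted as a change, so the true number is higher. Pou3f2, for example, had 0.00 with all libraries and -0.02 with total-count scaling, and was not counted. No alternative gave any of the 28 members an adjusted p under 0.05. The shifts by library moved by less than the spread within groups under the 3 other scalings and the filter of 1 CPM in 3 libraries. They were not recomputed without a count filter. No paired analysis was possible because the labels give no replicate numbers. Changes smaller than 1.5-fold were not simulated, so how often 3 mice per group would show them is unknown.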
